A study of Homo sapiens with 8 samples.

Results

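Human chromosome 19 carries the densest collection of ZNF genes in the genome, and 230 of its 261 ZNF genes were described here in 2 leukaemia lines, with and without the compound that the labels call dG. A gene was a member if its symbol was ZNF followed by a number and at most 1 letter, if the count table placed it on chromosome 19, and if it averaged at least 1 CPM over the 8 libraries, where CPM is a gene's count relative to its library's size after TMM scaling. Members were thus chosen by their symbol, position and level, and the description of genes on in 1 line only was selected on level as well. The same 230 were found with library sizes alone. All 230 entered the test across 18314 genes, out of 57992 in the table. By GENCODE 29, 223 of them are protein-coding genes and 7 are pseudogenes.

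Most proteins of this family carry a KRAB domain at one end and an array of C2H2 zinc fingers at the other. The fingers read DNA, and the KRAB domain brings in the corepressor TRIM28 and with it SETDB1, which methylates histone H3 at lysine 9, so that many members silence the sequences they bind, transposable elements among them. The genes lie in clusters that grew by tandem duplication, so neighbours resemble each other.

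U937 is a human leukaemia line resembling monoblasts, and KG1A is one of immature cells that display CD34. Each line was treated with 10 mM dG or with PBS as vehicle, and mRNA libraries were sequenced, 2 per combination of line and treatment: U937 in dG, U937 in PBS, KG1A in dG and KG1A in PBS. The labels name no duration of treatment, nor whether the 2 libraries of a group came from separate cultures. The spread behind each p-value is therefore that of these libraries, and it may be technical. The labels name no genetic change in either line.

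Library totals ran from 21053724 to 31135338 counts, so 1 count equalled 0.0321 to 0.0475 CPM before TMM scaling. CD34 lay at or below 0.776 CPM in the U937 libraries and between 931 and 1195 CPM in the KG1A libraries. Of the U937 markers, ELANE, PRTN3, AZU1 and CTSG were at 93.8 CPM or more in every U937 library and CSF1R between 1.38 and 1.87 CPM, but MPO, a defining enzyme of myeloid granules, did not exceed 0.199 CPM there. Of 11 markers of other cell types, 5 were at 0 in all 8 libraries, and in KG1A the T cell genes CD3D and CD3E made up most of their sum, which is given by group beside the effects of dG. Mitochondrially encoded genes took 8.18% and 7.93% of counts in U937 dG, against 9.76% and 9.83% in U937 PBS, and 8.01% and 8.30% in KG1A dG, against 9.12% and 9.19% in KG1A PBS. Its part in the results below was not tested.

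The family was far quieter in U937 than in KG1A. Its 230 members took 0.255% to 0.269% of all counts in the 4 U937 libraries and 0.677% to 0.765% in the 4 KG1A libraries. In PBS, 28 of 230 members were higher in U937, and the median log2 ratio of U937 over KG1A was -1.78, beside 0.01 over the 14840 genes that average at least 1 CPM. These levels entered the choice of members, so they are given as a description with no test. In libraries from bulk cultures, fewer expressing cells and less RNA per cell cannot be told apart.

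Many members were close to off in U937. A member counted as on in 1 line only when it averaged at least 1 CPM over the 4 libraries of that line and below 0.1 CPM over the 4 of the other. By this rule 2 members, or 0.87%, were on in U937 only, where the background over all genes was 5.25%. In KG1A only there were 65, or 28.3%, where the background was 4.71%. With a looser limit of 0.5 CPM the numbers were 3 and 79, where the backgrounds were 7.45% and 6.50%. Among the 218 ZNF genes of other chromosomes that average at least 1 CPM, 3 were on in U937 only (1.38%) and 23 in KG1A only (10.6%), and among 847 other chromosome 19 genes the numbers were 63 (7.44%) and 34 (4.01%). A further 141 members were on in both lines and 22 lay between the limits.

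**Figure D1:**
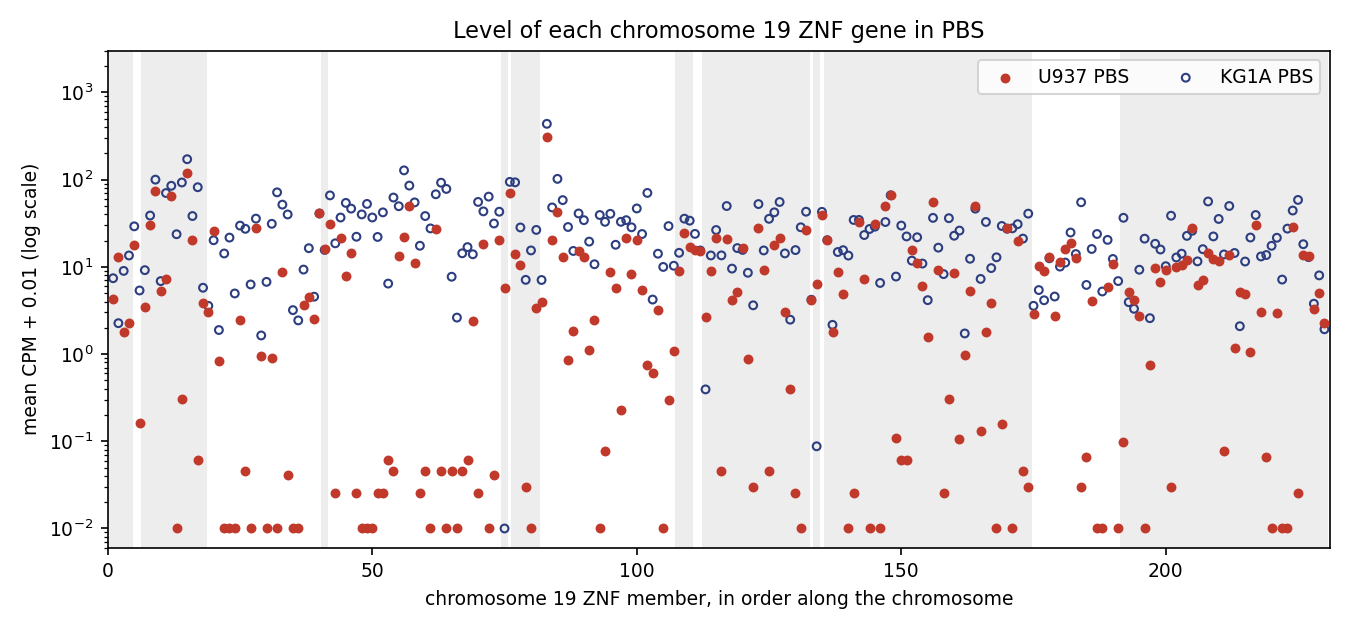
Mean CPM of each of the 230 members in U937 PBS (filled) and KG1A PBS (open), on a log scale after adding 0.01, in their order along chromosome 19; grey and white bands mark stretches of the chromosome separated by gaps of more than 500000 bases. Filled points at the bottom are members without reads or with a few reads in U937, while nearly every open point lies above 1 CPM.

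The 65 members on in KG1A only were not weakly expressed there. In U937 the 65 had medians of 0.0243 CPM in dG and 0.0157 CPM in PBS, against 24.1 CPM in dG and 21.0 CPM in PBS in KG1A. The 141 members on in both lines had KG1A medians of 24.4 CPM in dG and 21.7 CPM in PBS. ZNF257 was the highest of the 65 in KG1A. The 4 U937 libraries held 2 of its reads in all, both in 1 dG library. It had 108 and 116 CPM in KG1A dG and 77.6 and 78.7 CPM in KG1A PBS. ZNF85 did not exceed 0.0485 CPM in U937 and lay between 60.6 and 99.9 CPM in the KG1A libraries. ZNF91, known to silence SVA retrotransposons, had 0 and 0.194 CPM in U937 dG and 0.0314 and 0 CPM in U937 PBS, against 73.2 and 81.9 CPM in KG1A dG and 57.1 and 53.7 CPM in KG1A PBS. ZNF331, an imprinted gene, was at most at 0.0862 CPM in U937 and at 38.8 to 41.4 CPM in KG1A. The 8 highest of the 65 were ZNF257, ZNF788, ZNF85, ZNF681, ZNF91, ZNF544, ZNF486 and the pseudogene ZNF542P.

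Just inside the limit, named after the values were seen, were ZNF610 at 0.0923 and ZNF283 at 0.0973 CPM in U937, and just outside it ZNF264 at 0.109 and ZNF415 at 0.129 CPM. At the threshold for membership, ZNF763, ZNF321P and ZNF575 lay just inside, at 1.19, 1.24 and 1.36 CPM over the 8 libraries, and ZNF878, ZNF625 and ZNF541 just outside, at 0.914, 0.881 and 0.783 CPM.

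Both members on in U937 only were low. ZNF536, known as a repressor in neuronal differentiation, had 2.89 and 2.67 CPM in U937 dG and 6.21 and 5.06 CPM in U937 PBS, and no read in KG1A. ZNF114 had 2.41 and 3.01 CPM in U937 dG and 6.81 and 5.94 CPM in U937 PBS, against at most 0.107 CPM in KG1A. The dG libraries of U937 lay below the PBS libraries for both, by a log2 fold change of -1.03 ± 0.17 for ZNF536 (± is the standard error throughout; edgeR adjusted p = 1.68e-06) and of -1.25 ± 0.16 for ZNF114 (edgeR adjusted p = 1.21e-08).

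Per kilobase of exon, the authors' RPKM, ZNF146 was the highest member in both lines, with means of 72.4 RPKM in U937 and 104 RPKM in KG1A. It encodes a protein made almost wholly of zinc fingers. ZNF121 followed at 17.0 RPKM in U937 and 22.2 in KG1A, ZNF317 at 16.4 and 19.6, and ZNF266 at 14.9 and 18. All 4 were on in both lines.

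Along the chromosome the 261 ZNF genes fell into 21 stretches separated by gaps of more than 500000 bases, a limit chosen after the values were seen, and 19 of the stretches held members. The stretch from ZNF101 to ZNF254 (hg38, chromosome 19, 19668796 to 24129961) held 33 members, of which 20 were on in KG1A only, or 60.6%. Its median in PBS was 0.0356 CPM in U937 and 42.1 CPM in KG1A. The stretch from ZNF653 to ZNF791 (11483427 to 12640098) held 22 members, 9 of them on in KG1A only. In the stretch from 51571298 to 53580269 there were 12 of 39, and in the distal one from 57191500 to 58481230 there were 8 of 39. Among neighbouring members, 37 of 229 adjacent pairs were both below 0.5 CPM in U937, 84 were unlike and 108 were both at or above it. The longest runs of neighbours below 0.5 CPM in U937 held 8 members, from ZNF682 to ZNF85, and 6, from ZNF43 to ZNF730, both in the stretch from ZNF101 to ZNF254. The other such runs held at most 3.

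Coding genes of other names lay inside some of these stretches, but none that averages at least 1 CPM lay between ZNF101 and ZNF254, and 2 lay between ZNF653 and ZNF791. Of 39 over all stretches, 31 were on in U937, 4 of them in U937 only, and 6 were on in KG1A only. Those with zinc finger names (ZFP, ZSCAN, ZIK, HKR or FIZ, a split made after the values were seen) accounted for 4 of the 6, out of 10, and the other 29 for 2, SSC5D and VN1R1.

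The promoters of some members of the same stretch were much alike. RefSeq promoters of 300 bases (build GRCh38.p14, 250 before to 50 after the start) were matched by symbol for 198 of the 230 members, and 4 are printed: ZNF257 and ZNF43, near 0 in U937 and high in KG1A, ZNF93 from the same stretch, on in both lines, and ZNF83 from another stretch, higher in U937. They were chosen after the levels were seen. Capitals mark CCGGAAG or its reverse complement CTTCCGG, the core of sites for ETS factors.
ZNF257: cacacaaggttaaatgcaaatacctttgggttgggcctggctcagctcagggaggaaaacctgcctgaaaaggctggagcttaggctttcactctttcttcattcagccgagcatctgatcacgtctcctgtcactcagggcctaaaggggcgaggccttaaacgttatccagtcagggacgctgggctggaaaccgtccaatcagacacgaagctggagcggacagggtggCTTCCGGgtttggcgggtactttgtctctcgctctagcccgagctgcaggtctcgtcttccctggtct
ZNF43: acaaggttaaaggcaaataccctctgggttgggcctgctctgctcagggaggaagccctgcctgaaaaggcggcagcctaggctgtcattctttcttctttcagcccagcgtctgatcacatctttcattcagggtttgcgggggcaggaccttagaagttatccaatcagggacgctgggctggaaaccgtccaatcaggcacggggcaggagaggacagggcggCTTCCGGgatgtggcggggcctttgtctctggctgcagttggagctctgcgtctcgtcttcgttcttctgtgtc
ZNF93: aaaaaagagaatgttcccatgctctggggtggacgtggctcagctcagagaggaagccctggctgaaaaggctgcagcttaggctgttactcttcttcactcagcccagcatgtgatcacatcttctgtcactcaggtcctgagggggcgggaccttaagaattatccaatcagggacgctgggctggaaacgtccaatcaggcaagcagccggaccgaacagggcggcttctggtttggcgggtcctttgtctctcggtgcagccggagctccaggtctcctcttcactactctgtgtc
ZNF83: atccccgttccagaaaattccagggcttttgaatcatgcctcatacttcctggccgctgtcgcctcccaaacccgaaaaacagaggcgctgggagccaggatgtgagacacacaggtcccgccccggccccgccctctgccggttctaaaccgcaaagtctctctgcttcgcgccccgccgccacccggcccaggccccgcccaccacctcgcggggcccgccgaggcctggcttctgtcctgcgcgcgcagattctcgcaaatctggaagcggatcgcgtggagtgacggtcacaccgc

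In global alignments ZNF257 and ZNF43 were identical at 82.9% of aligned bases, ZNF257 and ZNF93 at 81.7%, and ZNF43 and ZNF93 at 82.2%, while each shared 57.6% to 58.3% with ZNF83. They hold 13, 12 and 10 CpG dinucleotides, and ZNF83 holds 29. The promoter of ZNF93, a gene on in both lines, thus resembled those of 2 genes that were near 0 in U937. It differed at the marked site: ZNF257 and ZNF43 hold CTTCCGG, and ZNF93 and ZNF83 hold neither form.

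Over the 198 matched promoters, 3 motifs were searched on both strands. CCGGAAG was in 46.5% of members' promoters and in 10.3% of all 35116 RefSeq promoters. Its share was 48.1% for members on in KG1A only and 47.6% for members on in both lines. CACGTG, an E-box, was in 4.55% of members' promoters and 7.26% of all, in 0 of 54 for members on in KG1A only and 9 of 126 for members on in both. TATAAA was in 2.02% of members' promoters and 11.5% of all. The median number of CpG was 17 for members on in KG1A only, 22 for those on in both lines and 14 over all RefSeq promoters. A match is a stretch of letters and no test was made.

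The next comparison asked what dG did to the family in KG1A. More members were higher than lower: 101 rose (43.9%) and 19 fell (8.26%), where over all genes tested 29.6% were higher and 19.6% lower, 49.1% in all, and over the 14840 genes at the members' level 33.6% and 23.1%. The median log2 fold change of members was 0.18, beside 0.04 over all genes. Among the ZNF genes of other chromosomes 79 were higher and 27 lower of 218, with a median of 0.12. The changes were small: the median was 0.36 over the members that rose and -0.28 over those that fell, and 4 members rose at least 2-fold (1.74%), beside 4.55% of the 14840 genes. With library sizes alone, 86 members rose and 31 fell, beside 25% and 24.2% of all genes, so that the share of higher calls was 73.5% in place of 84.2%. Without U937 dG replicate 1 the numbers were 85 and 31, and without U937 dG replicate 2 they were 84 and 31. In both of these fits the KG1A median over all genes was 0 and that of members 0.11. Markers of other cell types summed to 122 to 125 CPM in KG1A dG, against 105 to 107 CPM in KG1A PBS. Of the 11, 5 could be tested and CD3E alone was called in KG1A, at 21.8 and 21.0 CPM in dG and 10.5 and 11.0 CPM in PBS (0.99 ± 0.09, edgeR adjusted p = 1.17e-11). HBB, HBA1, EPCAM and KRT18 were at 0. The part of these markers in the members' rises was not tested.

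**Figure D2:**
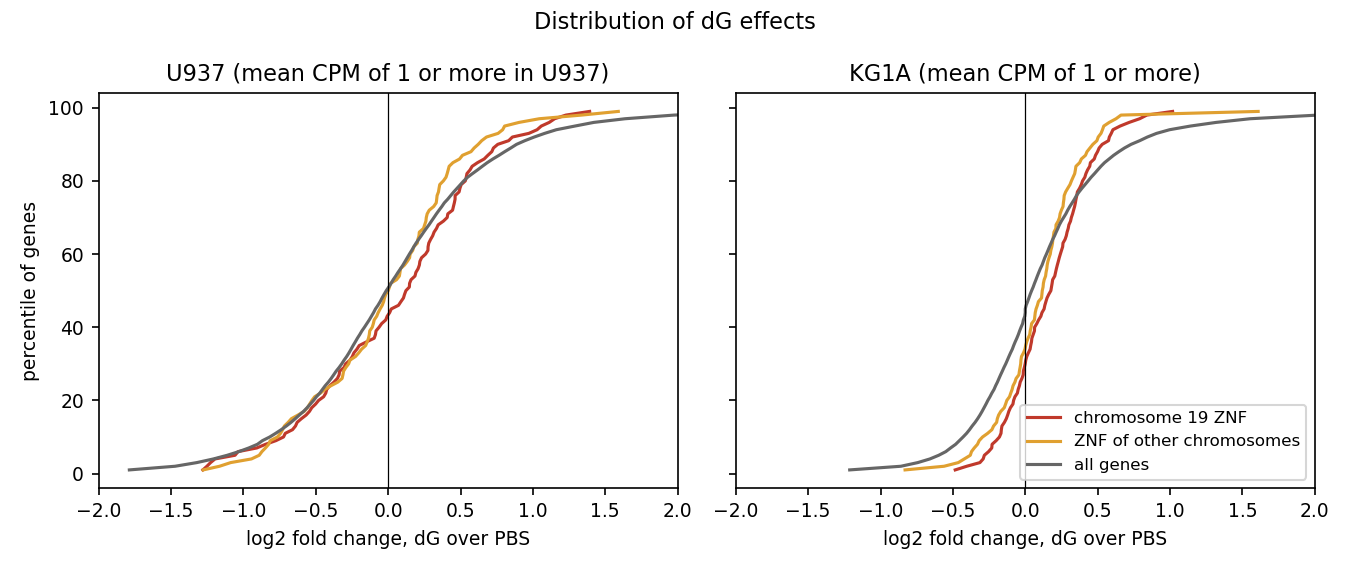
Cumulative distribution (percentile of genes) of the log2 fold change of dG over PBS in U937, over genes at 1 CPM or more in that line, and in KG1A, over genes at 1 CPM or more across the 8 libraries. In KG1A the curve of chromosome 19 ZNF genes lies to the right of the curve of all genes below the upper quartile, with medians of 0.18 and 0.04; axes are cut at -2 and 2.

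ZNF850 had the largest rise in KG1A. It had 73.2 and 74.7 CPM in dG, against 35.3 and 33.2 CPM in PBS, a log2 fold change of 1.11 ± 0.06 (edgeR adjusted p = 9.15e-19). ZNF175 had 41.7 and 43.5 CPM in dG, against 20.5 and 19.9 CPM in PBS, a log2 fold change of 1.08 ± 0.07. ZNF160 had 89.0 and 98.7 CPM in dG and 49.5 and 43.4 CPM in PBS (1.02 ± 0.05). In all 3 both dG libraries lay above both PBS libraries, which was a condition for naming them.

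ZNF93, known to silence L1 retrotransposons, had 91.9 and 95.6 CPM in KG1A dG and 47.5 and 45.4 CPM in KG1A PBS, a log2 fold change of 1.01 ± 0.05 (edgeR adjusted p = 9.11e-18). ZNF99 and ZNF439 followed at 0.86 ± 0.08 and 0.83 ± 0.06. ZNF91 rose by 0.48 ± 0.06. ZNF274, which recruits SETDB1 to the ends of other ZNF genes, rose by 0.43 ± 0.05, and ZNF473, a factor of histone mRNA processing, by 0.26 ± 0.06. The call of ZNF473 ended on the log2 RPKM scales (limma adjusted p = 0.133 to 0.246). ZNF420, a brake on p53, lay at 40.7 and 41.0 CPM in dG and 39.6 and 41.4 CPM in PBS and did not pass the test (0.01 ± 0.06, edgeR adjusted p = 0.943).

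ZNF30 had the largest fall in KG1A. It had 8.14 and 8.52 CPM in dG and 16.2 and 14.6 CPM in PBS, a log2 fold change of -0.88 ± 0.10 (edgeR adjusted p = 3.15e-09). ZNF781 had 6.65 and 6.66 CPM in dG and 10.4 and 9.51 CPM in PBS (-0.58 ± 0.11). ZNF540, ZNF583, ZNF880 and ZNF527 changed by -0.45 ± 0.17, -0.41 ± 0.09, -0.40 ± 0.07 and -0.39 ± 0.08. The call of ZNF540 ended without KG1A PBS replicate 2 (edgeR adjusted p = 0.271) or KG1A dG replicate 2 (edgeR adjusted p = 0.197). ZNF121 fell by 0.17 ± 0.04 on the log2 scale.

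**Figure D3:**
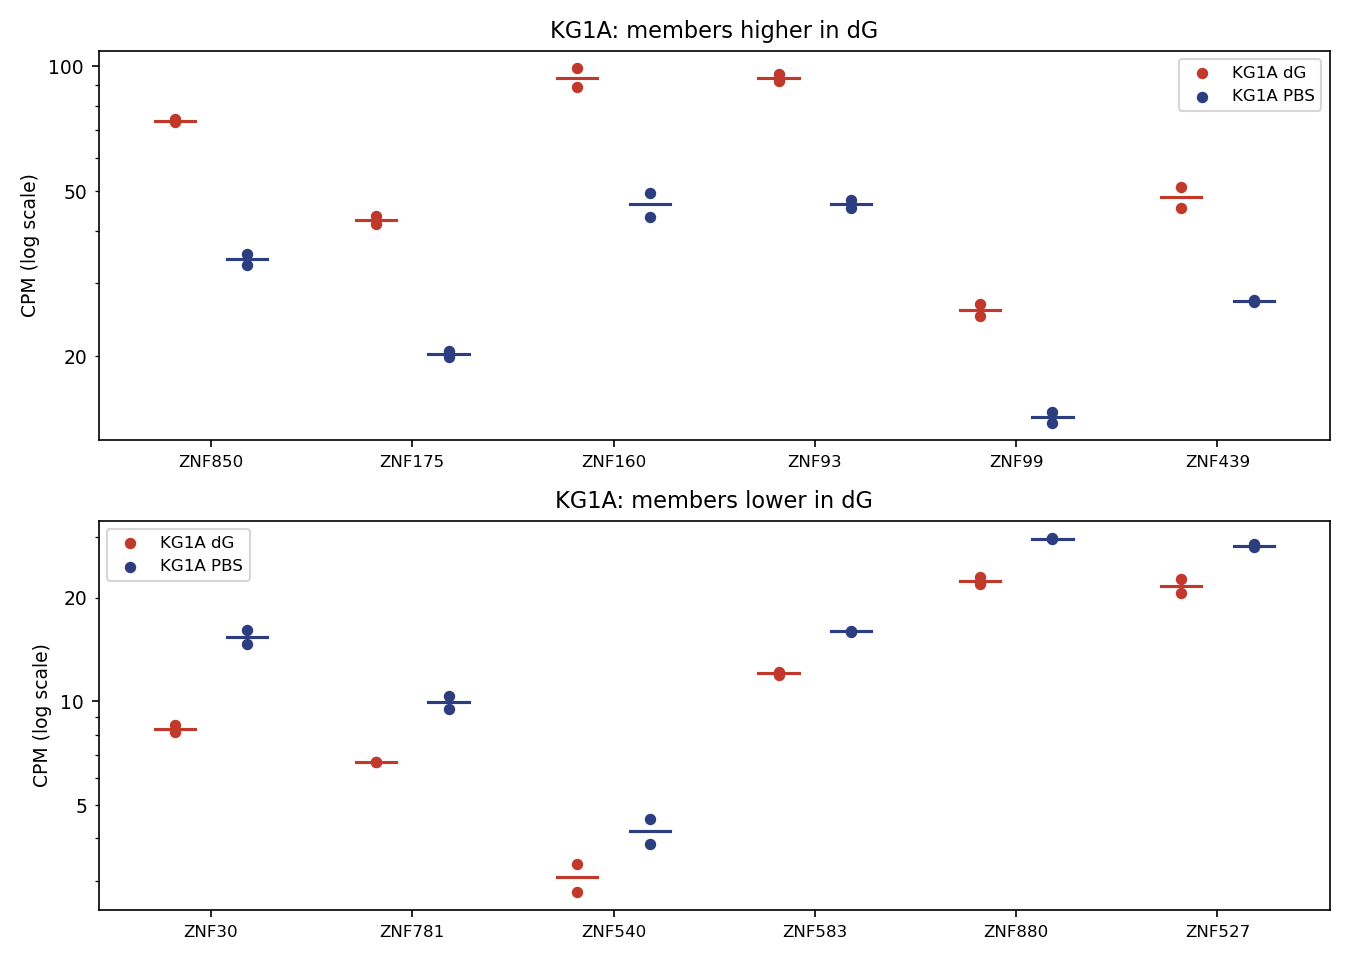
CPM on a log scale in each KG1A library, dG (red) left of PBS (blue), for the 6 members with the largest rises and the 6 with the largest falls; points are libraries and bars are means of 2. For each gene the dG points lie on one side of the PBS points, which was a condition for choosing it.

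Among stretches with at least 12 members, the shares of members that rose in KG1A were highest in the 2 with the largest shares of members on in KG1A only. The counts by stretch stand beside 33.6% higher and 23.1% lower of the 14840 genes that average at least 1 CPM. From ZNF101 to ZNF254, 29 of 33 members rose and 0 fell, with a median log2 fold change of 0.42 and rises between 0.18 for ZNF101 and 1.01 for ZNF93. From ZNF653 to ZNF791, 15 of 22 rose and 0 fell (median 0.36). With library sizes alone these were 27 and 0, and 14 and 0. In the stretch from 51571298 to 53580269, 14 rose and 7 fell of 39, and in the distal stretch 18 rose and 2 fell of 39. From 55476332 to 56671783, 1 rose and 1 fell of 17 (median -0.01). In U937, among members at 1 CPM or more there, 8 rose and 2 fell of 12 from ZNF101 to ZNF254 (median 0.47). From ZNF653 to ZNF791, 7 rose and 1 fell of 10 there (median 0.46). The later stretches had, in order, 8 higher and 5 lower of 22, 12 and 9 of 29, and 3 and 5 of 12. Of all genes at that level in U937, 38.2% were higher and 37.2% lower. Members of a stretch are near-identical copies in part, so reads may be divided among them, and their values are not independent.

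**Figure D4:**
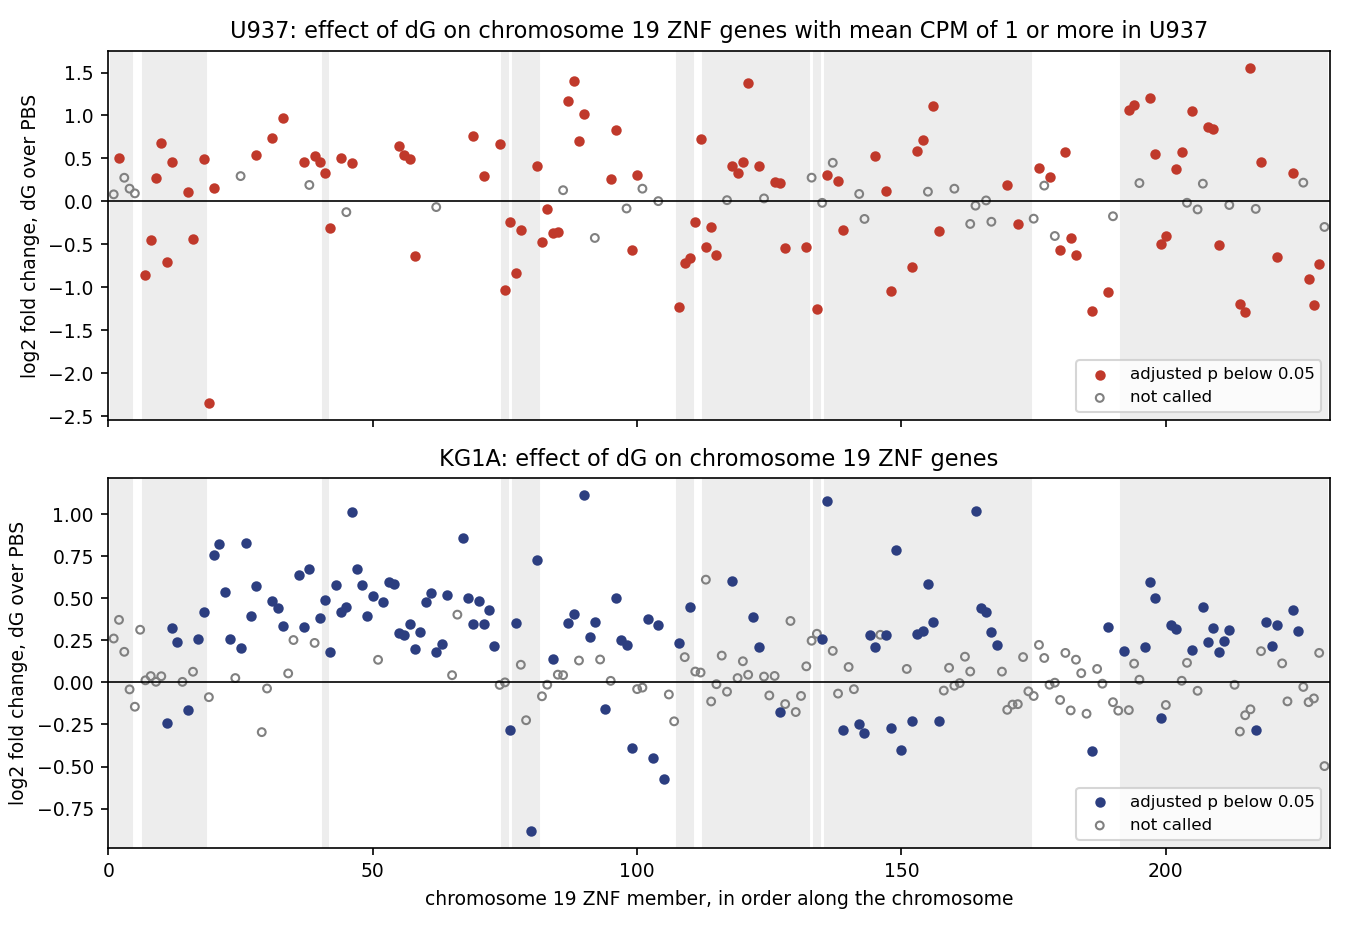
Log2 fold change of dG over PBS for each member in its order along chromosome 19, in U937 (144 members at 1 CPM or more there) and in KG1A (230 members); filled points passed the test at an adjusted p of 0.05 and bands mark the stretches. In KG1A the members of the stretch from ZNF101 to ZNF254 lie above 0 except one at -0.01. In U937 filled points lie on both sides, and in that stretch 8 of 12 rose and 2 fell.

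In U937 the family went both ways. Of the 230 members 69 were higher and 51 lower in dG, where over all genes tested 32.4% were higher and 31.5% lower, 64.0% in all. Among these, 86 members were below 1 CPM in U937, and 8 higher and 6 lower calls there rest on few reads. Of the 144 members at 1 CPM or more in U937, 61 rose (42.4%) and 45 fell (31.2%), beside 38.2% and 37.2% of all genes at that level. Their median was 0.12. Over the 230 members, library sizes alone gave 60 higher and 58 lower, beside 28.9% and 35.5% of all genes, and DESeq2's size factors gave 78 and 44, beside 36.6% and 26.8%. The medians were 0.50 over the 61 rises and -0.57 over the 45 falls. Called changes of at least 2-fold were found in 10 members in each direction (6.94%), beside 8.83% higher and 6.58% lower of all genes at that level. The wider spread in U937 than in KG1A was one of all genes, whose quartiles were -0.46 and 0.46 in U937 and -0.20 and 0.38 in KG1A. Markers of other cell types summed to 9.51 to 11.1 CPM in U937 dG, against 9.13 to 9.53 CPM in U937 PBS. Of these, COL1A1 was higher, at 4.57 and 4.22 CPM in dG and 1.26 and 1.36 CPM in PBS (1.76 ± 0.20, edgeR adjusted p = 1.84e-09). Their part in the members' changes was not tested.

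ZNF83 stood out by its level. It had 114 and 121 CPM in U937 dG, against 52.5 and 56.8 CPM in U937 PBS, a log2 fold change of 1.11 ± 0.05 (edgeR adjusted p = 1.04e-20). ZNF814 had 2.85 and 3.30 CPM in dG and 1.00 and 1.08 CPM in PBS (1.56 ± 0.21), and ZNF461 had 4.14 and 5.63 CPM in dG and 1.79 and 1.87 CPM in PBS (1.40 ± 0.18). ZNF222, ZNF547, ZNF382, ZNF460 and ZNF805 rose by between 1.06 and 1.37 on the log2 scale. ZNF224, a repressor of aldolase A, rose by 0.41 ± 0.07 and ZNF274 by 0.34 ± 0.06.

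ZNF653 had the largest fall among members at 1 CPM or more in U937. It had 0.560 and 0.631 CPM in dG and 3.26 and 2.79 CPM in PBS, a log2 fold change of -2.35 ± 0.26 (edgeR adjusted p = 5.57e-10). ZNF546 had 3.88 and 3.78 CPM in dG and 9.10 and 8.93 CPM in PBS (-1.23 ± 0.13). ZNF587B, ZNF583, ZNF114, ZNF324B, ZNF552 and ZNF470 changed by between -1.29 and -1.06. ZNF146 changed by -0.09 ± 0.03 (edgeR adjusted p = 0.0189), a call that ended without U937 dG replicate 1 or 2, and its sign turned with DESeq2's size factors.

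**Figure D5:**
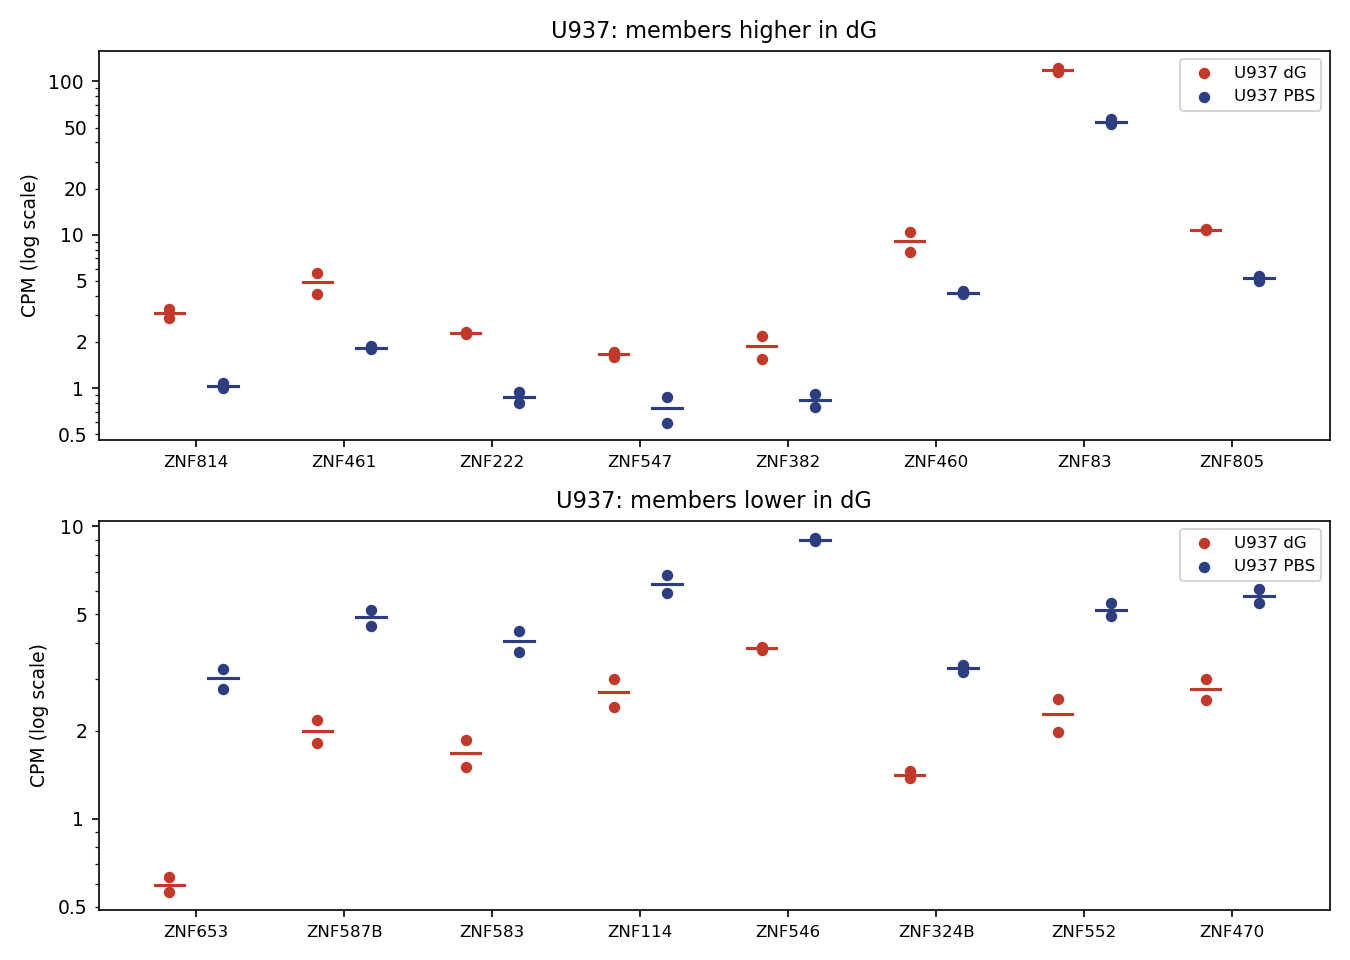
CPM on a log scale in each U937 library, dG (red) left of PBS (blue), for the 8 members at 1 CPM or more in U937 with the largest rises and the 8 with the largest falls; points are libraries and bars are means of 2. ZNF83, at 114 and 121 CPM in dG, is the only one of the 16 above 12 CPM.

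Among members below that level, the largest fitted U937 changes rest on a few reads. ZNF841 had 7 and 8 reads in dG and none in PBS, which is at least 6.50-fold higher over a floor of 3 counts for the PBS group. ZNF486 had 3 and 4 reads in dG and none in PBS (at least 3.03-fold), and ZNF90 had 5 and 1 and none (at least 2.60-fold). ZNF439 had 7 and 7 reads in dG and 1 and 1 in PBS, ZNF43 had 3 and 8 and 1 and 1, and ZNF823 and ZNF681 had 3 reads each in dG and none in PBS. ZNF320 had no read in dG and 1 and 4 in PBS, and ZNF607 had 2 and 1 reads in dG and 12 and 5 in PBS. With 1 U937 library left out, the calls ended for ZNF90 (PBS replicate 1 or dG replicate 1), ZNF43 and ZNF607 (PBS replicate 1 or dG replicate 2), ZNF823 and ZNF681 (either PBS library or dG replicate 2) and ZNF320 (PBS replicate 2 or either dG library), at edgeR adjusted p-values between 0.0512 and 0.262. Together the 65 members on in KG1A only had 55 and 51 reads in U937 dG and 43 and 27 in U937 PBS, which is 0.135% and 0.140% of their KG1A level in dG and 0.0766% and 0.0611% in PBS. CD34, the KG1A marker, was at 0.0325% and 0.0732% of its KG1A level in U937 dG and at 0.0237% and 0.0263% in U937 PBS. Its part in these changes was not tested. Floors cover counting error only.

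Set against each other, the effects of dG in the lines differed for 81 members: in 34 the U937 effect was the higher and in 47 the lower, beside 17.6% and 26.4% of all genes, 44.1% in all. The balance turned with DESeq2's size factors, to 47 higher and 40 lower beside 22% and 21.3% of all genes. It also turned with no filter (47 and 35), with DESeq2's Wald test (39 and 31) and without U937 dG replicate 1 (47 and 33) or 2 (40 and 32), so no direction is given for the family. ZNF160 differed by -1.07 ± 0.08 (edgeR adjusted p = 1.12e-13), since it had 46.4 and 48.8 CPM in U937 dG and 49.6 and 48.7 CPM in U937 PBS. ZNF175 differed by -0.77 ± 0.11. ZNF83 differed by 0.75 ± 0.08 and ZNF814 by 1.72 ± 0.22. ZNF850 differed by -0.10 ± 0.10 (edgeR adjusted p = 0.446), having risen in both.

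In both lines 66 members were called (28.7%), beside 43.3% of the 14840 genes that average at least 1 CPM. The sets differ in U937, where 144 of 230 members but 13554 of 14840 genes were at 1 CPM or more. Of the 86 members below that level 16.3% were called in U937, against 73.6% of the 144. The 2 shares thus compare sets of unlike level in U937. Of the 66, 54 were called in the same direction (81.8%, beside 79.2% of the genes called in both lines among the 14840). They were 44 up (19.1% of members, beside 18.5% of the 14840 genes) and 10 down (4.35%, beside 15.8%). Another 12 were called in opposite directions. The 2 contrasts share no library, but they come from 1 model with a shared filter, scaling and spread, so they are not independent. The KG1A counts changed when a U937 dG library was left out. ZNF850 rose by 1.01 ± 0.08 in U937 and 1.11 ± 0.06 in KG1A, and ZNF700 by 0.54 ± 0.06 and 0.57 ± 0.06. ZNF547 rose by 1.20 ± 0.28 and 0.60 ± 0.17. Of the 12 in opposite directions, 10 were lower in U937 and higher in KG1A (4.35% of members, beside 5.95% of the 14840 genes). The reverse held for 2 (0.87%, beside 3.05%). ZNF302 had 7.85 and 7.96 CPM in U937 dG and 12.8 and 15.5 CPM in U937 PBS (-0.83 ± 0.10), but 115 and 122 CPM in KG1A dG and 94.6 and 91.3 CPM in KG1A PBS (0.35 ± 0.05). ZNF780A, ZNF606, ZNF470 and ZNF790 also fell in U937 and rose in KG1A. ZNF121 was one of the 2 the other way round, at 0.11 ± 0.04 in U937 and -0.17 ± 0.04 in KG1A, and its U937 call ended with library sizes alone (edgeR adjusted p = 0.434) or without U937 PBS replicate 1 (edgeR adjusted p = 0.198). Without a single library, calls also ended for ZNF547 in KG1A (PBS replicate 2, edgeR adjusted p = 0.0852), ZNF790 in KG1A (dG replicate 1, edgeR adjusted p = 0.0522) and ZNF606 in U937 (PBS replicate 1, edgeR adjusted p = 0.156, or dG replicate 2, edgeR adjusted p = 0.0614).

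The KRAB domain was read from open frames of 223 members with a letter pattern for its A box. The first pattern was sought at the start of the longest open frame. The later patterns were sought in every open frame of every coding transcript, so the counts differ in the frames searched as well. In all, 3 patterns were tried in turn, each with the dG counts by class on view, because known KRAB genes were being missed; all 3 are given, with no test. The first found it in 164 members, the second in 163 and the last in 182. In KG1A, members with it rose in 85 of 164, 80 of 163 and 91 of 182 cases. Members without it rose in 12 of 59, 17 of 60 and 6 of 41. Of the 14840 genes that average at least 1 CPM, 33.6% were higher. Members with it fell in 15, 15 and 16 cases and members without it in 4, 4 and 3, beside 23.1% of the 14840 genes. With library sizes alone the last pattern gave 77 higher and 23 lower of 182 with it, and 5 higher and 8 lower of 41 without it. In U937, among members at 1 CPM or more there, those without it had 18 higher and 19 lower of 45 under the first pattern, 12 and 24 of 44 under the second and 9 and 18 of 33 under the last. Those with it had 43 and 26 of 98, 49 and 21 of 99, and 52 and 27 of 110, beside 38.2% and 37.2% of all genes at that level. The difference in U937 thus depended on the pattern and the frames searched, and each pattern still missed some KRAB genes.

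The partners that KRAB zinc fingers work with were more often lower than higher in U937. Of 31 tested members of a list of silencing partners, 6 were higher and 19 lower in U937 dG. In KG1A dG 14 were higher and 9 lower. Over all genes tested, 32.4% were higher and 31.5% lower in U937, and 29.6% and 19.6% in KG1A. Over genes that average at least 1 CPM in U937, 38.2% were higher and 37.2% lower there. Over the 14840 genes, 33.6% were higher and 23.1% lower in KG1A. TRIM28 had 187 and 183 CPM in U937 dG and 326 and 327 CPM in U937 PBS, a log2 fold change of -0.82 ± 0.04 (edgeR adjusted p = 2.71e-21), and 219 and 204 CPM in KG1A dG and 249 and 251 CPM in KG1A PBS, a change of -0.24 ± 0.04. SETDB1 did not pass the test in either line (0.08 ± 0.05 in U937, edgeR adjusted p = 0.127, and 0.03 ± 0.05 in KG1A, edgeR adjusted p = 0.615), though it did in U937 with DESeq2's size factors. UHRF1, which helps to maintain DNA methylation, changed by -1.04 ± 0.07 in U937, and ATF7IP, a partner of SETDB1, by 1.01 ± 0.04. In KG1A, CBX5, CHD3 and PIAS1 had the largest changes among the called partners, and all 3 were higher in dG.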

How the data were processed

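The members and gene lists were chosen with earlier results of these data known. The authors deposited whole-number counts of reads for each gene, and their deposited RPKM table equalled those counts per kilobase of exon and per TMM-scaled library. Per the submitters' processing notes, the build was hg38 (GRCh38) and the tools were bcl2fastq 2.18.0.12, TopHat2 and HTSeq 0.11.2; their roles, strandedness and the handling of multiply matching reads are not given in the sources used here, so values of near-identical or overlapping members are uncertain.

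The main test was the two-sided quasi-likelihood F test of edgeR 4.0.16 in R 4.3.3, on counts with TMM factors, after filterByExpr had kept 18314 genes. All 8 libraries entered 1 model with a mean per line and treatment. P-values were adjusted by Benjamini-Hochberg across those genes, and 0.05 was the threshold. DESeq2 1.42.0 and limma 3.58.1 (log2 of RPKM plus 1 or 0.1) were alternatives. Levels by line chose the members and were not tested.

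Named genes were the 6 called members with the largest change in each direction and line whose dG libraries lay on one side of the PBS libraries, the largest differences between lines, the 8 highest members on in 1 line, the 4 of highest RPKM, those nearest the threshold, those called in both lines, and members and silencing partners with textbook roles. Because the U937 genes so named rest on few reads, a rule for members at 1 CPM or more in U937 was added after the values were seen, as were the stretches, the split of neighbours, the KRAB patterns, the printed promoters and the motifs. Coding sequences were the longest open frames of GENCODE 29 transcripts, but the KRAB patterns after the first were sought in all open frames. Promoters came from RefSeq. Replicate numbers only name the libraries. Values of some markers of other cell types are not reported here.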

Additional observations from a re-analysis of the deposited data

Results flagged for a closer look

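The dG effect differed between the lines, by the test of the difference itself (edgeR, adjusted p below the threshold over all genes), for 33 of the named members. Over all 230 members the share was 35.2%, below the 44.1% of all genes tested. Some members were named for a large difference in this same test, so the 33 are a list and carry no weight as a count. Values are the U937 effect minus the KG1A effect on the log2 scale.

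The U937 effect was the higher for ZNF814 (1.72), ZNF222 (1.33), ZNF805 (1.22), ZNF460 (1.01), ZNF461 (1.00), ZNF382 (0.81), ZNF83 (0.75), ZNF121 (0.28) and ZNF317 (0.27). It was the lower for ZNF473 (-0.28), ZNF93 (-0.57), ZNF175 (-0.77), ZNF583 (-0.86), ZNF552 (-0.90), ZNF606 (-0.98), ZNF160 (-1.07), ZNF587B (-1.09), ZNF780A (-1.11), ZNF324B (-1.12), ZNF575 (-1.14), ZNF302 (-1.18), ZNF470 (-1.39), ZNF586 (-1.39), ZNF321P (-1.40), ZNF546 (-1.47), ZNF790 (-1.66) and ZNF653 (-2.26).

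The differences of ZNF841 (5.88), ZNF486 (4.69), ZNF90 (4.29), ZNF43 (2.45), ZNF439 (2.20) and ZNF607 (-1.98) rest on few U937 reads, given with the reads of the members on in KG1A only. ZNF575 was nearest the threshold, with an edgeR adjusted p = 0.0491. The calls of ZNF486, ZNF90, ZNF43, ZNF439, ZNF607, ZNF382, ZNF583, ZNF586, ZNF552, ZNF473, ZNF321P and ZNF575 ended when at least 1 of the 8 libraries was left out.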

How the results depend on the processing

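The count of members lower in KG1A dG was 19 as reported, and 31 with library sizes alone, 29 with no filter, 33 with each line fitted alone and 30 with log2(RPKM + 1). The share of all genes tested moved as well, from 19.6% to 24.2%, 12.9%, 27.3% and 22.9% in that order. The count higher in KG1A dG was 101, and 53 with log2(RPKM + 0.1) and 59 with unfiltered log2(RPKM + 1). Beside these stood 29.6%, 22% and 11.5% of all genes. The count lower in U937 dG was 51, and 33 with unfiltered log2(RPKM + 1), beside 31.5% and 14.6% of all genes. The count with a lower effect in U937 was 47, and 31 with the DESeq2 Wald test, beside 26.4% and 17.8% of all genes. Leaving out each library in turn, members higher in KG1A ranged from 82 to 102 and lower from 14 to 31, where 31 came without U937 dG replicate 1 or 2. In U937 they ranged from 51 to 71 and from 38 to 52, higher effects in U937 from 29 to 47 and lower from 32 to 47, and members on in KG1A only from 62 to 66. Higher effects in U937 then outnumbered lower ones without U937 dG replicate 1 (47 and 33) or 2 (40 and 32). Without either of these libraries the KG1A median over all genes moved from 0.0432 to 0, and that of members from 0.177 to 0.11. The cause of these shifts was not tested.

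Single values turned sign as follows. In U937, ZNF146 gave 0.0020 with DESeq2's size factors, 0.0021 with its Wald test and 0.0018 without U937 dG replicate 2, and CBX5 ranged from -0.14 to 0.0219 as each library was left out, 0.0219 without U937 dG replicate 1. As the difference of effects with log2(RPKM + 1), filtered or not, ZNF439 gave -0.58, ZNF841 -0.0699, ZNF486 -0.25, ZNF90 -0.42, ZNF607 0.0564, ZNF382 -0.0868 and ZNF43 -0.11. With log2(RPKM + 0.1), ZNF439 gave -0.13 and ZNF90 -0.17.

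The replicate block gave 101 higher and 16 lower in KG1A, 65 and 51 in U937, and 33 and 47 for the difference. Same-numbered libraries deviated together with a correlation of -0.178 in KG1A and -0.0121 in U937, so the numbers are no pairing. A crossed block in KG1A, chosen after seeing the data, gave 105 and 21. Depth limits members with under 3 reads per group.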
